A study of Mus musculus with 5 samples.

Results

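The genes described here are 44 genes of the cell division cycle, taken by function: 23 that act in S phase, when DNA is copied, and 21 that act in G2 and mitosis. They are 44 of the 32793 gene rows of the series, and all 44 had enough counts to be among the 13501 genes tested. RNA was sequenced in bulk from mouse colon spheroids, which are epithelial cells cultured as small balls. The 2 NDD libraries came from spheroids that express dimerization-deficient alleles of both receptors, Notch1DD and Notch2DD, and the 3 WT libraries from wild-type spheroids; every culture was on a mixed background, mainly C57Bl6 with some FVB. Neither the age of the mice nor the number of mice or cultures behind a library is given, so the p-values below measure the spread between these libraries, which may be technical. By its title, the study concerned what dimerization of Notch does in the intestine.

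A cell that is about to copy its DNA loads the MCM helicase onto origins, opens the helix with the help of GINS and Cdc45, and copies both strands with polymerases that run on the PCNA clamp. Most of these genes are switched on by E2F transcription factors as a cell passes from G1 into S phase. The genes of mitosis follow later, under MYBL2, FOXM1 and the MuvB complex, and repression of both sets in resting cells is a known function of the DREAM complex. In the colon, cell division is a property of stem and progenitor cells at the crypt base, and differentiated surface colonocytes have left the cycle. In bulk RNA, fewer dividing cells and less of these transcripts per dividing cell cannot be told apart.

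Total counts were 22372029 and 22122748 in NDD and ranged from 19192389 to 23064000 in WT, and every member had at least 76 counts in every library. The 7 epithelial markers were expressed throughout, with a summed TPM (the deposited transcript abundance, which allows for transcript length) of 10562 and 9689 in NDD and 9130 to 9608 in WT. Of 10 fibroblast, 10 immune and 6 endothelial markers, 8, 7 and 6 had at most 10 counts in every library. The Notch target and stem cell gene Olfm4, a marker of crypt base cells in the small intestine, had 0 counts in all libraries, and is no check here. The NDD libraries were unlike each other for these genes, so values are given by library for the members described in full.

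The main finding is that 1 of the 2 NDD libraries was low for every member, and the other lay near or within the WT range for most. NDD replicate 2 was below every WT library for 44 of 44 members, against 38.6% of all tested genes. For all of these members it was also below NDD replicate 1. Its median member stood at 35.1% of the WT mean in S phase and at 45.4% in mitosis, in CPM (counts scaled to library size with TMM factors). NDD replicate 1 stood at 95.9% and 93.7%. It lay inside the WT range for 16 of 23 S-phase members and 10 of 21 mitotic members (46.5% of all tested genes), below it for 5 and 10 (27.4%), and above it for 2 and 1 (26.1%). In the deposited TPM, which has no TMM factor, replicate 1 was below the WT range for 2 and 7 members (23.4% of all genes), inside it for 19 and 13, and above it for the same 3 genes, while replicate 2 was again below it for all 44 (43.7% of all genes).

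**Figure D1:**
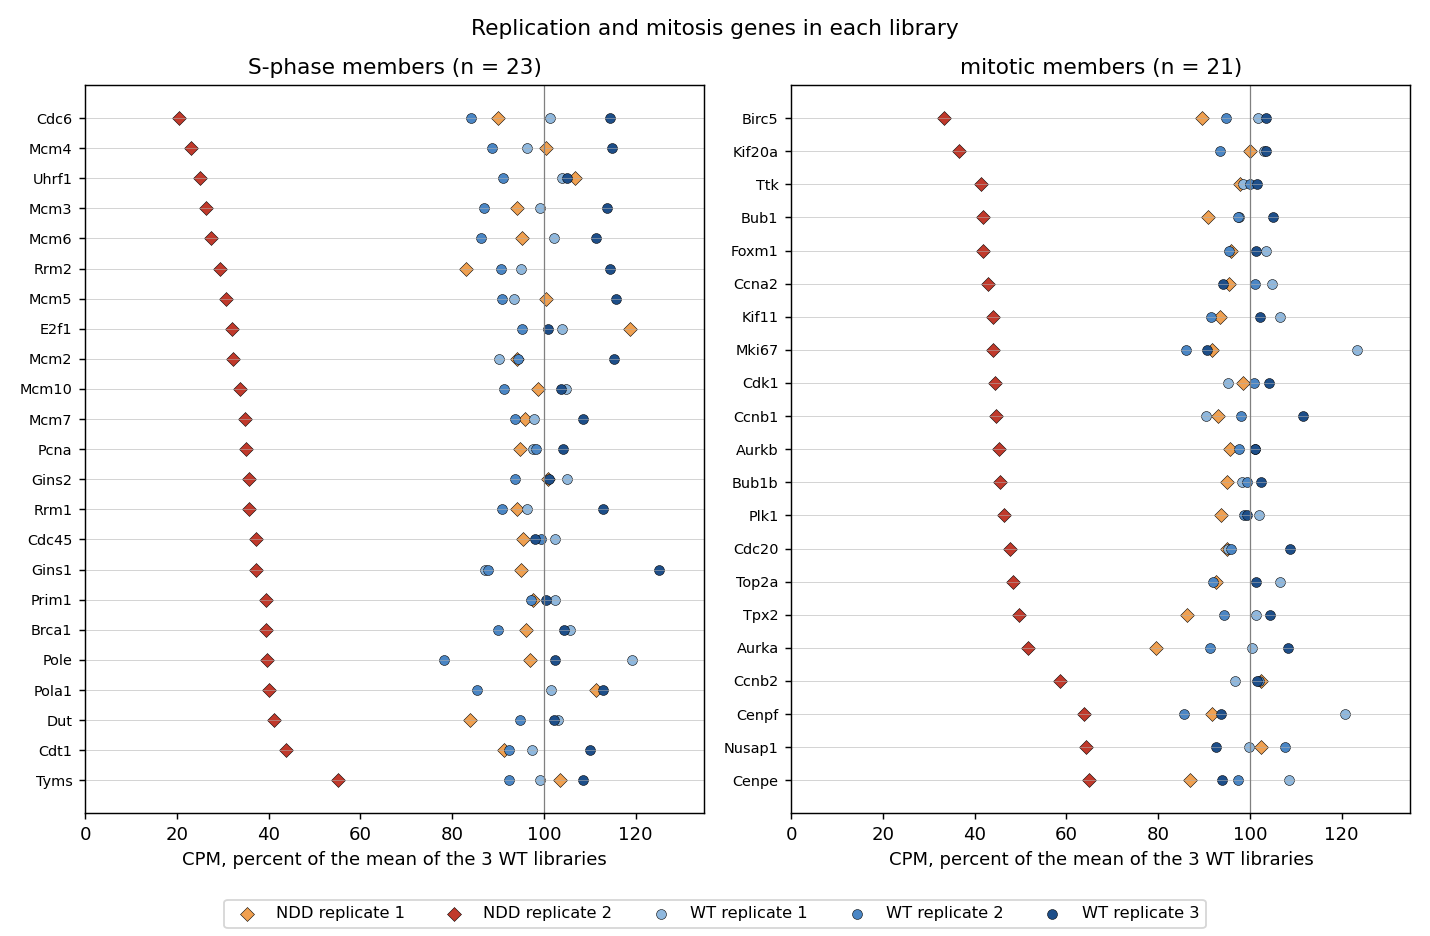
CPM of each member (rows) in each library, as percent of the mean of the 3 WT libraries (horizontal axis, linear), with S-phase members on the left and mitotic members on the right, ordered by NDD replicate 2. NDD replicate 2 (red diamonds) is left of all other libraries in every row, from 20.6% (Cdc6) to 64.8% (Cenpe), while NDD replicate 1 (orange diamonds) lies between 79.4% (Aurka) and 119% (E2f1).

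Between the groups no member passed the test. With edgeR's quasi-likelihood test, 0 of 44 had an adjusted p under 0.05, against 0.0889% of all genes, or 0.0222% counting those lower in NDD. At an unadjusted p under 0.05 there were 0 S-phase members and 1 mitotic member, Aurka, against 4.68% of all genes on the lower side; DESeq2, which called 1.02% of all genes lower, and limma-voom also called 0 members. All 44 log2 fold changes were below 0 (50.5% of all genes), with a median of -0.60 in S phase and -0.52 in mitosis, where the median of all tested genes was -0.0047. Those medians depended on NDD replicate 2: without it they were -0.047 and -0.080, and 10 members changed sign.

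NDD replicate 2 was also compared alone with WT, after it had been singled out as the lowest library for every member. Calls from this comparison restate that choice and are no test of the members. It also assumes that the spread within NDD equals that between WT libraries, which the values contradict. For every member the CPM SD was larger in NDD than in WT, with 98.4 and 17.4 for Mcm7 and 16.0 and 14.9 for Cenpf. Leaving out NDD replicate 1 hides this spread. In that edgeR fit, 22 of 23 S-phase members and 18 of 21 mitotic members were lower with an adjusted p under 0.05, where 5.79% of all genes were called lower. The exceptions were Gins1 (adjusted p 0.0566), Cenpe (0.0582), Cenpf (0.113) and Nusap1 (0.0576). The same fit with NDD replicate 1 alone called 0 members, with 0 at an unadjusted p under 0.05, and 0.0148% of all genes lower. With both NDD libraries but without WT replicate 2 there were 0 members and 0.00741% of all genes, and without either other WT library 0 of both. The fits with NDD replicate 2 alone or NDD replicate 1 alone compare a library with WT and not the genotypes.

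The helicase subunits Mcm2 to Mcm7 form the ring that unwinds DNA. In NDD replicate 2 they ranged from 23.04% (Mcm4) to 34.9% (Mcm7) of the WT mean, and in NDD replicate 1 from 94.1% (Mcm2) to 101% (Mcm5). Mcm7, the most abundant at 168 TPM in WT, was at 219 and 79.7 CPM in NDD and at 223, 214 and 248 CPM in WT. NDD replicate 2 was far below the other 4 libraries, which lay close together (log2 fold change -0.61, SE 0.40, edgeR adjusted p 0.516). Mcm3 had 171 and 48.0 CPM in NDD and 180.05, 158 and 206 CPM in WT, the largest difference of the group (log2 fold change -0.73, SE 0.49, edgeR adjusted p 0.525). Mcm5 had 189 and 57.5 CPM in NDD and 175, 170.5 and 217 CPM in WT, the smallest (log2 fold change -0.61, SE 0.46, edgeR adjusted p 0.565). For all 6 subunits the groups overlapped, because NDD replicate 1 lay inside the WT range. WT replicate 3 was the highest library for 6 of 6.

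Genes that license and fire origins include the member that was lowest relative to WT. Cdc6, which loads the helicase onto origins, was at 32.6 and 7.45 CPM in NDD and at 36.8, 30.5 and 41.5 CPM in WT. NDD replicate 2 thus held 20.6% of the WT mean, and replicate 1 lay within the WT range (log2 fold change -0.85, SE 0.57, edgeR adjusted p 0.522). Cdt1, the partner of Cdc6 in loading and the most abundant of these genes, was at 93.1 and 44.5 CPM in NDD and at 99.2, 94.1 and 112 CPM in WT. Its groups did not overlap in CPM, where replicate 1 missed the lowest WT library by about 1 CPM, but did in TPM (log2 fold change -0.57, SE 0.31, edgeR adjusted p 0.482). Gins2, a subunit of the GINS complex that activates the helicase, was at 29.1 and 10.3 CPM in NDD and at 30.3, 27.1 and 29.2 CPM in WT (log2 fold change -0.55, SE 0.41, edgeR adjusted p 0.557). Gins1, Cdc45 and Mcm10 held 37.2%, 37.2% and 33.9% of the WT mean in NDD replicate 2, and 95.1%, 95.4% and 98.7% in replicate 1.

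The 4 polymerase, primase and clamp genes held 35.1% to 40.1% of the WT mean in NDD replicate 2. Pcna, the clamp and the most abundant S-phase member at 313 TPM in WT, was at 194 and 72.0 CPM in NDD and at 199.8, 201 and 213 CPM in WT. In CPM, though not in TPM, it was the only one of these 4 genes without overlap between groups (log2 fold change -0.62, SE 0.39, edgeR adjusted p 0.509). Pola1, the catalytic subunit of the polymerase that starts each strand, was at 40.2 and 14.5 CPM in NDD and at 36.7, 30.9 and 40.7 CPM in WT. NDD replicate 1 was second to WT replicate 3 here, and the groups overlapped (log2 fold change -0.40, SE 0.41, edgeR adjusted p 0.654). Pole, the leading-strand polymerase, and Prim1, the primase, stood at 39.6% and 39.4% of the WT mean in NDD replicate 2, and at 96.98% and 97.6% in replicate 1.

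The genes of nucleotide supply held the S-phase member with the lowest level in NDD replicate 1 and the one least low in NDD replicate 2. Rrm2, the regulated subunit of ribonucleotide reductase, was at 124 and 44.02 CPM in NDD and at 142, 135.5 and 171 CPM in WT. Neither NDD library reached the WT range (log2 fold change -0.83, SE 0.42, edgeR adjusted p 0.477). Tyms, which makes thymidylate, was at 64.2 and 34.1 CPM in NDD and at 61.4, 57.3 and 67.2 CPM in WT. It was the S-phase member least low in NDD replicate 2, at 55.1% of the WT mean, and the only S-phase member above 50% (log2 fold change -0.33, SE 0.27, edgeR adjusted p 0.579). Dut, which removes dUTP, was the other gene of this group without overlap, at 83.9% and 41.2% of the WT mean in the NDD libraries (adjusted p 0.460). Rrm1 had 94.2% and 35.7%.

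Among the S-phase regulators were the 2 S-phase members that lay above every WT library in NDD replicate 1. Uhrf1, which guides maintenance of DNA methylation behind the fork, was at 177 and 41.5 CPM in NDD and at 173, 151 and 175 CPM in WT. E2f1, an activator of the S-phase programme, was at 36.3 and 9.79 CPM in NDD and at 31.8, 29.1 and 30.9 CPM in WT. For these genes NDD replicate 1 was the highest library of all and NDD replicate 2 the lowest, so their log2 fold changes of -0.60 (SE 0.55, edgeR adjusted p 0.617) and -0.41 (SE 0.50, adjusted p 0.704) have wide errors. Brca1, a repair gene transcribed in S phase, was at 96.02% and 39.5% of the WT mean.

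The cyclins and their kinase open the mitotic class. Ccna2, which acts in S phase and G2 and was the most abundant mitotic member at 208 TPM in WT, was at 322 and 145 CPM in NDD and at 354, 341 and 318 CPM in WT. Ccnb1, the cyclin that drives entry into mitosis, was at 95.7 and 46.0 CPM in NDD and at 93.1, 101 and 115 CPM in WT. In both cases replicate 1 was within the WT range, with log2 fold changes of -0.53 (SE 0.32, edgeR adjusted p 0.504) and -0.54 (SE 0.31, adjusted p 0.489). Ccnb2 was less low in NDD replicate 2: it was at 90.5 and 51.7 CPM in NDD and at 85.4, 90.1 and 89.7 CPM in WT (log2 fold change -0.31, SE 0.24, edgeR adjusted p 0.563). Cdk1, the kinase that these cyclins activate, was at 98.6% and 44.4% of the WT mean.

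Mitotic kinases and the checkpoint and exit genes were the groups in which NDD replicate 1 too was below every WT library in CPM. These groups are singled out here by that position, so a count of their genes is no test. Their 8 genes had no overlap between groups in CPM, whereas 16.2% of all tested genes had none on the lower side; over all members it was 5 in S phase and 10 in mitosis. In TPM 5 of the 8 had none (14.3% of all genes), since Aurkb, Cdc20 and Ttk lay inside the WT range in replicate 1, and over all members it was 2 and 7. Aurka, the kinase of spindle poles, was the clearest, at 67.98 and 44.2 CPM in NDD and at 85.99, 78.1 and 92.6 CPM in WT. The log2 fold change for Aurka was -0.61 (SE 0.21, unadjusted p 0.0257, edgeR adjusted p 0.437), and NDD replicate 1 stood at 79.4% of the WT mean. Plk1, the most abundant of these kinases, was at 182 and 90.3 CPM in NDD and at 198, 192 and 193 CPM in WT (log2 fold change -0.51, SE 0.29, edgeR adjusted p 0.484). Aurkb, the kinase of the chromosomal passenger complex, was at 89.3 and 42.3 CPM in NDD and at 94.3, 91.1 and 94.3 CPM in WT (log2 fold change -0.50, SE 0.30, edgeR adjusted p 0.5001). Ttk, the checkpoint kinase also called MPS1, was at 97.7% and 41.4% of the WT mean.

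Birc5, or survivin, a partner of Aurkb, was the lowest mitotic member in NDD replicate 2. It was at 80.6 and 29.9 CPM in NDD and at 91.6, 85.4 and 93.1 CPM in WT (log2 fold change -0.70, SE 0.39, edgeR adjusted p 0.483). Cdc20, which activates the anaphase-promoting complex, was at 146 and 73.5 CPM in NDD and at 147, 147 and 167 CPM in WT (log2 fold change -0.49, SE 0.29, edgeR adjusted p 0.495). There NDD replicate 1 was less than 1 CPM under the lowest WT library, and inside the WT range in TPM. The spindle checkpoint genes Bub1 and Bub1b stood at 41.8% and 45.4% of the WT mean in NDD replicate 2, and at 90.8% and 95.1% in replicate 1.

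Spindle and kinetochore genes ranged from 36.6% to 64.8% of the WT mean in NDD replicate 2. Tpx2, a spindle assembly factor, was at 111 and 63.6 CPM in NDD and at 130.1, 121 and 134 CPM in WT, with both NDD libraries below WT (log2 fold change -0.56, SE 0.24, edgeR adjusted p 0.458). Nusap1, which bundles spindle microtubules, was at 69.8 and 43.8 CPM in NDD and at 68.1, 73.4 and 63.1 CPM in WT (log2 fold change -0.26, SE 0.22, edgeR adjusted p 0.584). The kinetochore genes Cenpe and Cenpf held 64.8% and 63.7% of the WT mean in NDD replicate 2, like Nusap1 with 64.3%, and 86.97% and 91.7% in replicate 1. The motors Kif11, which pushes spindle poles apart, and Kif20a, which acts at cytokinesis, held 43.95% and 36.6%, and 93.4% and 100.1% in replicate 1. Cenpf was the member whose low value in NDD replicate 2 was nearest to the WT libraries, at 1.97 SD of WT below their mean, and WT replicate 1 was the highest of these at 97.9 CPM.

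Of the chromosome and transcription genes, Mki67, the antigen used to score dividing cells, was at 595 and 285 CPM in NDD and at 799, 558 and 587 CPM in WT. The log2 fold change for Mki67 was -0.56 (SE 0.33, edgeR adjusted p 0.4999), and WT replicate 1 stood above the others. Top2a, the topoisomerase that untangles sister chromosomes, was at 342 and 178 CPM in NDD and at 393, 339 and 374 CPM in WT (log2 fold change -0.50, SE 0.27, edgeR adjusted p 0.482). Foxm1, the transcription factor of late mitotic genes, was at 95.8% and 41.9% of the WT mean.

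S-phase genes were lower than mitotic genes within NDD replicate 2. There, 22 of 23 S-phase members lay under the mitotic median and 20 of 21 mitotic members above the S-phase median. At or under 50% of the WT mean were 22 and 16 members (7.36% of all tested genes). The ranges of the classes overlapped. Only 9 of 23 S-phase members lay under the lowest mitotic member, and 4 of 21 mitotic members above the highest S-phase member. The ratio of summed TPM, S-phase over mitotic, was 0.736 in NDD replicate 2, 1.03 in NDD replicate 1 and 0.962, 0.967 and 1.09 in WT. The sums behind it were 533 and 724 TPM in NDD replicate 2, 1647 and 1595 in NDD replicate 1, and 1530.1 to 1883 and 1582 to 1732 in WT. The members share a library, so this difference has no replicate check.

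**Figure D2:**
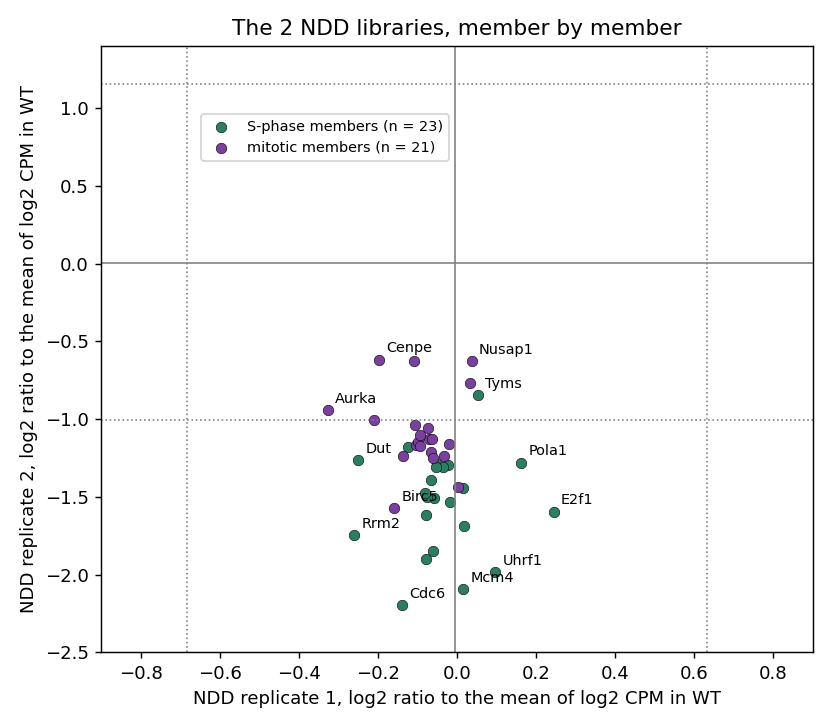
Log2 ratio of each member to WT in NDD replicate 1 (horizontal axis) and NDD replicate 2 (vertical axis, on another scale), with S-phase members in green and mitotic members in purple; solid grey lines mark the median and dotted lines the 5th and 95th percentiles of all 13501 tested genes. On the vertical axis 22 of 23 S-phase and 15 of 21 mitotic members lie below the 5th percentile of -1.01, and on the horizontal axis 0 lie below that of -0.68.

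Promoters of the members were read for known cell cycle motifs, because both classes were low together in NDD replicate 2, but to different degrees. Windows from 250 bases before to 50 after the annotated start came from a RefSeq promoter set (build GRCm38.p6, the assembly behind the mm10 build named for these data). In this set 19 of 23 S-phase and 16 of 21 mitotic members had an entry. Mcm4, Gins1, Gins2 and Pole, and Ccna2, Aurkb, Kif20a, Tpx2 and Foxm1, had none in the set used and were not searched. Searched on both strands were 3 E2F sites (TTTCCCGC, TTTGGCGC and TTTCGCGC, which overlap each other where a site reads in both directions), the cell cycle homology region or CHR (TTTGAA), which the MuvB complex binds, and the CCAAT box (CCAAT), bound by NF-Y. E2F letters stood in 42.1% of the S-phase genes, 6.25% of the mitotic genes and 4.04% of the 10009 tested genes with an entry. CHR letters stood in 10.5%, 68.8% and 14.3%, and a CCAAT box in 73.7%, 87.5% and 43.2%. Over all 32851 windows the shares were 1.84%, 17.9% and 37.4%. A match is a run of letters and not a shown binding site.

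**Figure D3:**
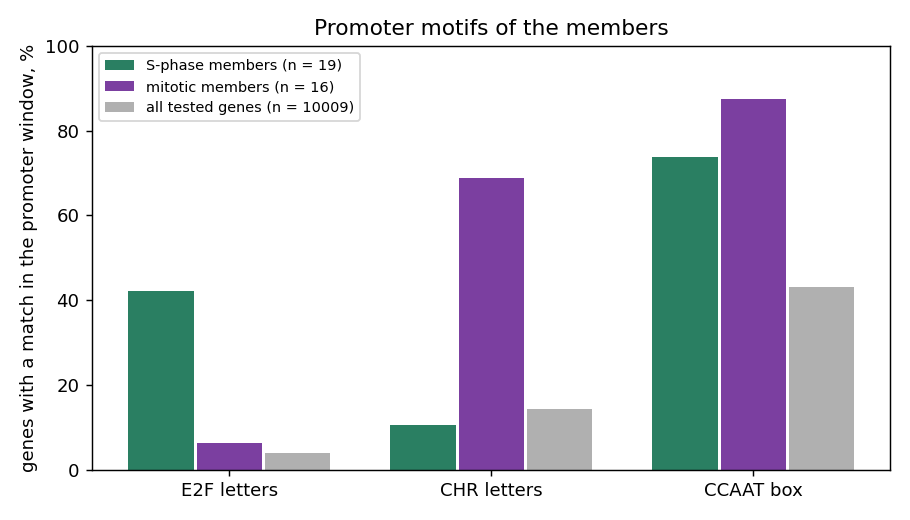
Percent of genes with a promoter entry that hold at least 1 match (vertical axis, from 0) for each motif, in S-phase members (n = 19), mitotic members (n = 16) and all tested genes (n = 10009). E2F letters stand out in the S-phase members (42.1%) and CHR letters in the mitotic members (68.8%), and CCAAT boxes are common in both.

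The 250 bases before the start of 4 members show these arrangements, with each match in capitals. Mcm6 (chr1:128359706-128359955, minus strand) and Cdc6 (chr11:98907901-98908150, plus strand) were chosen as S-phase genes with E2F letters that were among the lowest in NDD replicate 2, at 27.4% and 20.6% of the WT mean. Cdk1 (chr10:69352913-69353162, minus strand) holds all 3 kinds of motif, and Cdc20 (chr4:118437344-118437593, minus strand) holds CHR letters beside CCAAT boxes.
Mcm6: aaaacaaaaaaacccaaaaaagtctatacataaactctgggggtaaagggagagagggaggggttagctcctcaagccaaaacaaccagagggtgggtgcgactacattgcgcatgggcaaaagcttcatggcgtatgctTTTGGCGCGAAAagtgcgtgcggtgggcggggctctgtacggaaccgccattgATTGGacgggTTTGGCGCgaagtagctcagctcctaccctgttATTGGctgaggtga
Cdc6: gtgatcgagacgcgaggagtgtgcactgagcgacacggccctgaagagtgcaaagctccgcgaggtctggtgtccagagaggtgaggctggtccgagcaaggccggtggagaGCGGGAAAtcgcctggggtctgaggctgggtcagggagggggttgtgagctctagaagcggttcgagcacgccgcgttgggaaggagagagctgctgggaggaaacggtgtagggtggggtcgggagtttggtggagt
Cdk1: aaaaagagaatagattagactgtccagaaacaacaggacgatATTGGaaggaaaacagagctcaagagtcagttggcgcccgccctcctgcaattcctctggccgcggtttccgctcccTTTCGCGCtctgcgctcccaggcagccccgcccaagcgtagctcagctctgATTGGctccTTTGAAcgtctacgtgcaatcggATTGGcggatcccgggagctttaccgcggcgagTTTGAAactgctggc
Cdc20: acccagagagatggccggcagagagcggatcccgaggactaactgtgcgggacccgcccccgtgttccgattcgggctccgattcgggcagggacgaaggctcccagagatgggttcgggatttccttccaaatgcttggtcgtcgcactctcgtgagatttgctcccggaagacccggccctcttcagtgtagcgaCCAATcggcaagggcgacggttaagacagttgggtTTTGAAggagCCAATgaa

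The S-phase genes with E2F letters held a median of 29.04% of the WT mean in NDD replicate 2 (8 genes, 20.6% to 43.7%), and those without 35.7% (11 genes, 29.4% to 55.1%). Mitotic genes with and without CHR letters held 46.4% (11 genes) and 44.7% (5 genes). The ranges overlapped in both classes.

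Genes of the same machinery outside the 44 showed the same libraries apart. Of 52 other replication genes, 51 had a log2 fold change below 0 (median -0.46) and 0 passed the edgeR test, with 2 at an unadjusted p under 0.05 on the lower side, a share near the 4.68% of all genes. In NDD replicate 2, 51 were below every WT library (38.6% of all genes), at a median of 42.7% of the WT mean, and NDD replicate 1 stood at 100.3%. Among the 3 with the smallest p were Mcm8 (log2 fold change -0.90, SE 0.26, edgeR adjusted p 0.390), a helicase of repair, and Dbf4 (-0.58, SE 0.25, 0.456), the activator of the Cdc7 kinase. Of 50 other mitosis genes, 49 were below 0 (median -0.47) and 0 passed, with 5 at an unadjusted p under 0.05 on the lower side (4.68% of all genes); their medians were 48.9% of the WT mean in NDD replicate 2 and 94.04% in replicate 1. Here the 3 with the smallest p were Cdc25b (-0.43, SE 0.13, edgeR adjusted p 0.412), a phosphatase that activates Cdk1, Cdca3 (-0.80, SE 0.28, 0.437), and Cks1b (-0.70, SE 0.26, 0.437), a Cdk-binding protein. DESeq2 called 0 of either list. In CPM both NDD libraries lay below WT in 31 of the 50 mitosis genes and in 10 of the 52 replication genes, the latter a share near the 16.2% of all tested genes. In TPM it was 19 and 6, beside 14.3% of all genes.

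Subunits of the origin recognition complex, which marks the sites where replication starts, parted ways in NDD replicate 2. Orc1 stood at 14.7% of the WT mean, the lowest of all replication and mitosis genes listed, and Orc2 and Orc6 at 40.1% and 40.6%. Orc3, Orc4 and Orc5 stood at 101.9%, 84.2% and 79.1%. In NDD replicate 1 the 6 subunits ranged from 87.2% (Orc6) to 109.6% (Orc5). The complex was picked out with these values in view.

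The 17 genes of the E2F, pocket protein and MuvB families were mixed. Of these, 12 had a log2 fold change below 0, as did 50.5% of all tested genes, and 5 had one above 0. In the edgeR test 0 of the 17 passed, beside 0.0889% of all tested genes. Also 0 of the 17 had an unadjusted p under 0.05 in that test (all tested genes: 4.68% lower, 6.49% higher). The 3 with the smallest p were Mybl2 (log2 fold change -1.04, SE 0.45, edgeR adjusted p 0.460), the Myb protein that joins MuvB in S phase, and the E2F repressors E2f4 (-0.35, SE 0.15, 0.460) and E2f6 (-0.45, SE 0.20, 0.460). Mybl2 was at 66.5 and 21.6 CPM in NDD and at 93.8, 77.5 and 100.1 CPM in WT, without overlap. In NDD replicate 2, 11 of the 17 were below every WT library (38.6% of all genes). In that library 3 were inside the WT range and 3 above it. There Mybl2, E2f7 and E2f8 stood at 23.9%, 27.9% and 35.8% of the WT mean, and Lin9 and Lin54 at 56.0% and 62.2%. Lin37, Lin52 and Tfdp2 stood at 101.98%, 101.5% and 102.98%, and the pocket protein gene Rb1 at 168%. On the TPM scale Tfdp2 was instead below every WT library in NDD replicate 2, at 16.4 TPM against 17.99 to 20.2 TPM. In NDD replicate 1 Rb1 was below every WT library, at 88.9%, and Lin37, Lin52 and Tfdp2 were above every WT library, at 108.9%, 122% and 125%. E2f5 was above every WT library in both, at 123% and 119%.

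**Figure D4:**
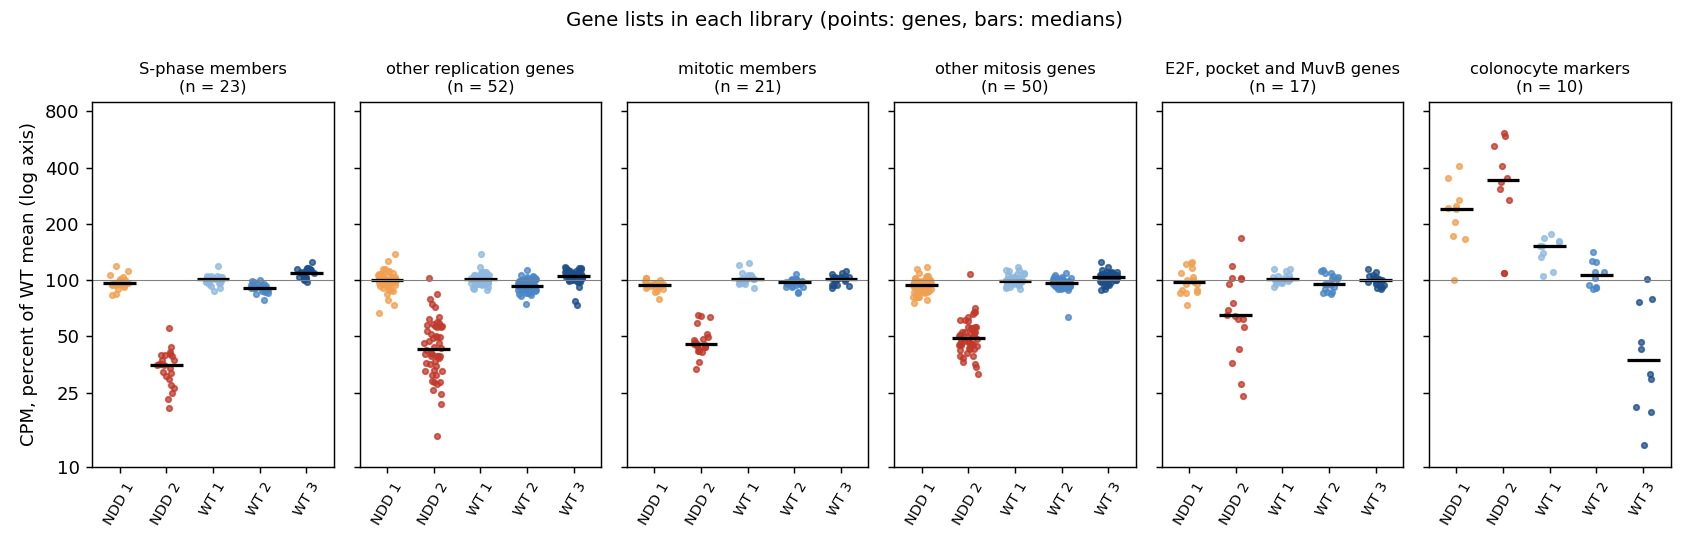
CPM as percent of the WT mean (vertical axis, logarithmic) for each gene (points) and the median (bars) of 6 lists in the 5 libraries. The 4 lists of replication and mitosis genes have medians from 35.1% to 48.9% in NDD replicate 2 and from 93.7% to 100.3% in NDD replicate 1, whereas colonocyte markers are high in both NDD libraries, at 241% and 342%, and lowest in WT replicate 3, at 37.2%.

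Markers of differentiated cells also differed between these libraries. The 10 colonocyte markers had a median of 241% of the WT mean in NDD replicate 1 and 342% in NDD replicate 2, against 152%, 107% and 37.2% in WT; 0 of the 10 passed the edgeR test and 6 had an unadjusted p under 0.05 on the higher side (6.49% of all genes). By summed TPM the NDD libraries stood in the other order, at 8142 in replicate 1 and 6646 in replicate 2, against 3755 to 5553 in WT. The 5 goblet cell markers had medians of 111% and 141% in NDD and 112%, 111% and 76.5% in WT. All had a log2 fold change above 0, and 0 passed the edgeR test. Clca1 and Agr2 had an unadjusted p under 0.05 in that test (6.49% of all genes on the higher side). Both lay above WT in both NDD libraries, as did 15.8% of all tested genes. Krt20, a keratin of surface cells, was at 60.02 and 130.5 CPM in NDD and at 35.05, 35.3 and 4.93 CPM in WT. The stem cell receptor gene Lgr5 was at 2.32 and 1.405 CPM in NDD and at 9.37, 7.34 and 8.66 CPM in WT (log2 fold change -2.18, SE 0.32, edgeR adjusted p 0.119). The crypt stem markers did not go one way. Of 5 tested, 0 passed the edgeR test and 3 had an unadjusted p under 0.05, all lower in NDD (4.68% of all genes). In NDD replicate 1, Lgr5, Ascl2 and Axin2 were below every WT library, at 27.4%, 34.3% and 76.2% of the WT mean, while Smoc2 and Sox9 were above every WT library, at 175% and 145%. In NDD replicate 2, Lgr5, Ascl2, Axin2 and Smoc2 were below every WT library, at 16.6%, 33.6%, 62.7% and 40.5%, and Sox9 was inside the WT range at 99.6%. The list summed to 82.3 and 54.8 TPM in NDD and 77.4 to 99.1 TPM in WT. Krt20 and Lgr5 were named after their values were seen.

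Among markers of other cell types, 2 of the 10 fibroblast markers were tested, Pdgfrb and Vim, and they did not go one way. Pdgfrb had 188 and 552 counts in NDD and 122, 102 and 80 in WT. Vim stood at 57.5% and 47.1% of the WT mean in NDD and at 148%, 105% and 46.4% in WT, so both NDD libraries were inside the WT range. The fibroblast list summed to 4.19 and 8.94 TPM in NDD and 2.07 to 4.44 TPM in WT. The collagen genes Col1a1, Col1a2 and Col3a1 had at most 10 counts in any library, and Lum and Thy1 had 0 in all. The immune list summed to 3.26 and 4.21 TPM in NDD and 5.66 to 8.28 TPM in WT, and the endothelial list to at most 0.1 TPM, with Kdr, Emcn and Tie1 at 0. The most abundant transcript, DQ539915, took 4.17% of counts in NDD replicate 2 and 2.68% to 3.48% elsewhere. The part of these differences in the low replication and mitosis genes of NDD replicate 2 was not tested.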

How the data were processed

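Bulk RNA libraries (stranded mRNA kit, per the labels' protocols) were aligned and quantified by the authors; Bowtie2, RSEM and the build mm10 are named in the submitters' processing notes, without versions or settings. The authors deposited 2 tables, used here: estimated counts, whole and not normalized, and TPM. Every column matched a sample title. How reads shared by similar genes were divided is not given in the sources used here.

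EdgeR 4.0.16 (R 4.3.3; TMM, filterByExpr, robust quasi-likelihood test, no covariate) was run on all 5 libraries and 13501 genes, with Benjamini-Hochberg adjustment over all of them and a threshold of 0.05. SEs were approximated as the log2 fold change over the square root of F. Fold changes use a prior count of 0.125, and log2 ratios of a library to WT add 0.5 CPM. Alternatives were DESeq2 1.42.0, limma 3.58.1 (voom, or on log2 TPM), other scalings and filters, the replicate block and leaving out each library. Code was tested on simulated data.

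Members and lists were chosen with earlier results of these data known. All 44 members were accounted for; values per library are given for the most abundant member of each role group and those with the largest and smallest fold change, and, of each other list, the 3 genes with the smallest p are named, except 1 that is not reported here. Promoter shares are descriptions. Total counts were 19192389 to 23064000 per library; the errors given reflect the spread between libraries.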

Additional observations from a re-analysis of the deposited data

How the results depend on the processing

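All 44 members stayed below WT and uncalled under RLE and upper-quartile factors, no filter, a minimum of 10 counts, DESeq2, limma-voom, the 3 limma fits on TPM, the replicate block and without any WT library, with adjusted p-values from 0.200 (DESeq2) to 0.915 (without WT replicate 3). The medians of S-phase, mitotic, other replication and other mitosis genes were -0.77, -0.61, -0.60 and -0.55 with limma-voom, -0.78, -0.62, -0.58 and -0.55 on log2(TPM + 1) with or without a filter, and -0.80, -0.63, -0.63 and -0.57 on log2(TPM + 0.1); the cause was not tested. Taking means for medians, or leaving out Ccna2, Foxm1 and E2f1, moved no class median by more than the spread between WT libraries.

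Positions in TPM, an alternative chosen after seeing the data, cut the genes without overlap between groups from 5 to 2 (S-phase), 10 to 7 (mitotic), 10 to 6 (other replication) and 31 to 19 (other mitosis). The share of all tested genes without overlap on the lower side was 16.2% in CPM and 14.3% in TPM.

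Leaving out a library moved the medians most: from -1.51 to -0.047 (S-phase), -1.14 to -0.080 (mitotic), -1.23 to 0.018 (other replication) and -1.03 to -0.075 (other mitosis), the lowest without NDD replicate 1 and the highest without NDD replicate 2. Calls ranged from 0 to 22, 0 to 18, 0 to 40 and 0 to 43 genes, each highest without NDD replicate 1, where 5.79% of all genes were called lower. Sign changes without NDD replicate 2 gave ranges of -2.12 to 0.021 for Mcm4, -1.70 to 0.021 for Mcm5, -1.49 to 0.027 for Gins2, -1.32 to 0.17 for Pola1, -0.86 to 0.064 for Tyms, -2.00 to 0.11 for Uhrf1, -1.64 to 0.26 for E2f1, -0.77 to 0.047 for Ccnb2, -1.45 to 0.015 for Kif20a and -0.64 to 0.048 for Nusap1.

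Over all genes 12 were called, 58 without a filter, 4 with at least 10 counts in every library, 357 with DESeq2, 24 with limma-voom, 33 with the replicate block, and 0 (without WT replicate 1) to 1198 (without NDD replicate 1) when a library was left out. The labels do not say that replicate numbers pair libraries; deviations of same-numbered libraries correlated at -0.0095 and 0.35. With the replicate block the medians were -0.73, -0.59, -0.56 and -0.53 and 0 members were called. With 2 NDD libraries that disagree, a difference between genotypes in these genes could not be told apart from a difference between cultures.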

Other observations

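Among the WT libraries, the S-phase members also varied more than the mitotic ones. WT replicate 3 was the highest WT library for 15 of 23 S-phase members and WT replicate 2 the lowest for 19. For mitotic members WT replicate 3 was the highest for 10 of 21 and WT replicate 2 the lowest for 12. The median coefficient of variation between WT libraries was 9.13% for S-phase and 5.45% for mitotic members, from 1.57% (Ttk) to 21.7% (Gins1). WT replicate 3 was also the lowest of all libraries for 9 of 10 colonocyte markers.

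Pttg1, or securin, which inhibits separase until anaphase, was the mitosis gene that was not low in NDD replicate 2. It was at 33.1 and 31.1 CPM in NDD and at 32.2, 18.2 and 36.2 CPM in WT, and was named after its values were seen.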
